A study of Mus musculus with 7 samples.

Results

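Chemokines are small secreted proteins that direct the movement of leukocytes, and 10 chemokine genes were followed here in C2C12 muscle cells that had been incubated with exosomes. The genes were chosen by name with earlier results of these data known, so that counts over them are descriptions. Every probe that the array annotation gives 1 of these names was taken, whatever its signal. They were the CXC chemokines Cxcl1, Cxcl2, Cxcl5, Cxcl10, Cxcl12 and Cxcl16, the CC chemokines Ccl2, Ccl5 and Ccl7, and Cx3cl1, which belongs to the CX3C class. They accounted for 10 of 31829 gene names and 11 of 39429 probes on the arrays. Of these, 9 probes, for 8 of the genes, were bright enough to be tested.

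Chemokine classes are named for the spacing of the first cysteines of the protein, and each chemokine signals through 1 or more receptors that span the membrane. CXC chemokines with the residues Glu-Leu-Arg (ELR) ahead of these cysteines, such as Cxcl1, Cxcl2 and Cxcl5, act through Cxcr2 and attract neutrophils, whereas Ccl2 and Ccl7 attract monocytes. Injured or inflamed muscle is a known source of several of them, and in many cell types their transcription is driven by NF-kB, a family of dimeric transcription factors that inflammatory signals release into the nucleus.

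The study asked whether exosomes from palmitate-treated muscle cells alter gene expression in other muscle cells. C2C12, an immortalised mouse line whose myoblasts fuse into myotubes, provided both the exosomes and the recipient cells. In the EXO-Post Palm group (n = 3 arrays), recipient cells received exosomes of C2C12 cells pre-treated with the saturated fatty acid palmitate at 0.5 mM, and in the EXO-Post BSA group (n = 4) exosomes of cells pre-treated with bovine serum albumin. The exosomes were collected after palmitate had been removed from the donors, and all recipients were kept with them for 24 h in serum-free medium. No recipients without exosomes were analysed here. The labels call the recipient cells myoblasts and the study calls them myotubes. All 12 genes of a list of differentiated muscle markers, among them Acta1, Myh3 and Myog, were well above background on all 7 arrays. The arrays are labelled as biological replicates and nothing more is said of their origin, so p-values measure the spread between these 7 cultures of 1 line.

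Values below are log2 of the array signal minus the 75th percentile of that array, so that 0 is the level of a fairly bright probe, and differences between groups (EXO-Post Palm minus EXO-Post BSA) are log2 fold changes fitted with limma across all 21589 tested probes. Tested probes were those that the scanner software called well above background on 75% or more of the arrays in either group. Between 48.5 and 70.3% of probes were well above background on each array, and array pairs correlated at 0.962 to 0.981 among EXO-Post BSA arrays, at 0.958 to 0.966 among EXO-Post Palm arrays and at 0.958 to 0.983 across groups. The arrays stood on 4 slides. Slide 1 (EXO-Post BSA replicates 1 and 2 and EXO-Post Palm replicate 1) and slide 3 (EXO-Post BSA replicate 4 and EXO-Post Palm replicate 3) held both groups, and the difference within each is given beside the fitted one. EXO-Post BSA replicate 3 stood alone on slide 2 and EXO-Post Palm replicate 2 on slide 4. With slide as a block these arrays add nothing to the difference, which then rests on slides 1 and 3.

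Only 1 chemokine probe, that of Cxcl5, passed an adjusted p of 0.05 in limma, with higher signal after EXO-Post Palm. This threshold was passed by 115 of all tested probes (0.533%), 100 of them higher (0.463%). The 2 groups did not overlap for 3 of the 9 chemokine probes, those of Cxcl1, Cxcl5 and Cx3cl1, which were all higher with EXO-Post Palm. Across all tested probes 11.3% did not overlap, 5.40% higher and 5.87% lower. At an unadjusted p of 0.05, the same 3 probes passed as higher (4.85% of all probes) and that of Cxcl16 as lower (5.19%). The fitted difference was above 0 for 8 of the 9 probes. Its median was 0.53 over the chemokine probes and -0.02 over all tested probes.

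**Figure D1:**
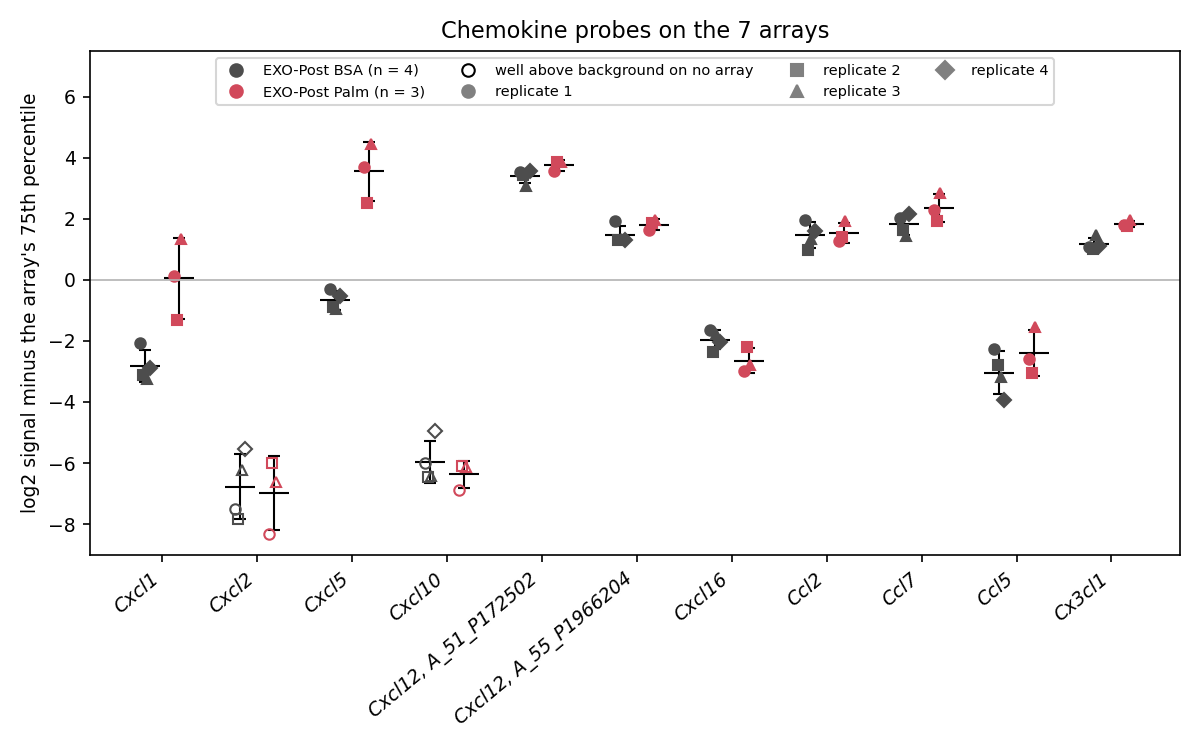
Log2 signal of the 11 chemokine probes relative to the 75th percentile of each array, for the 4 EXO-Post BSA arrays (grey) and the 3 EXO-Post Palm arrays (red), with replicate numbers as symbols, group means as horizontal lines and SD as bars. Open symbols are probes that were well above background on no array. The groups stood apart for Cxcl1, Cxcl5 and Cx3cl1 and overlapped for the other probes.

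The ELR chemokines showed the widest differences. The probe of Cxcl5, a neutrophil attractant made by epithelial and stromal cells, lies at chr5:91190490-91190549 on the plus strand (mm9). Its values were -0.29, -0.88, -0.97 and -0.53 in EXO-Post BSA replicates 1 to 4 and 3.69, 2.51 and 4.45 in EXO-Post Palm replicates 1 to 3. Every EXO-Post Palm array thus lay far above every EXO-Post BSA array, and the EXO-Post Palm arrays were spread more widely (SD 0.98) than the EXO-Post BSA arrays (SD 0.31). The fitted difference was 4.22 (SE 0.42, 95% interval 3.25 to 5.18), which is 18.6-fold (adjusted p = 0.0108 in limma). It was 4.27 within slide 1 and 4.98 within slide 3, and 4.57 with slide as a block (adjusted p = 0.0215). When EXO-Post Palm replicate 1 or 3 was left out, the adjusted p was 0.0550 or 0.0547 and the difference 4.15 or 3.77, and the gene passed when any other array was left out. In bulk RNA, more cells expressing the gene and more RNA per cell cannot be told apart.

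Cxcl1, the mouse chemokine also known as KC, was measured by a probe at chr5:91321845-91321904 on the plus strand (mm9). It read -2.06, -3.13, -3.24 and -2.88 in EXO-Post BSA replicates 1 to 4. With EXO-Post Palm it read 0.11, -1.30 and 1.32 in replicates 1 to 3. The groups did not overlap, but EXO-Post Palm replicate 2 was nearer to EXO-Post BSA replicate 1 than to EXO-Post Palm replicate 1. The difference was 2.87 (SE 0.57, 95% interval 1.58 to 4.16), or 7.32-fold, with an adjusted p of 0.0862 in limma, so that it did not pass. In an exact 2-sided permutation test over the 35 ways to part the arrays, p was 0.0286 for Cxcl1 as for Cxcl5, the smallest value this design allows.

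The call for Cxcl1 depended on how the arrays were modelled. Within slide 1 the difference was 2.71 and within slide 3 it was 4.20. With slide as a block, to which EXO-Post Palm replicate 2 adds nothing, it was 3.35 (SE 0.46) and passed (adjusted p = 0.0385). That made 2 of 9 chemokine probes past the threshold, against 0.533% of all tested probes in that fit. Dropping EXO-Post Palm replicate 2, the array with the lowest Cxcl1 signal of its group, gave 3.55 and a pass (adjusted p = 0.0159). Both passes thus rest on the same EXO-Post Palm arrays, replicates 1 and 3. Leaving out any array but EXO-Post Palm replicate 2 gave 2.23 to 3.13 and no pass. Of 14 other settings, 1 of them without adjustment of p, Cxcl1 passed in 8 and Cxcl5 in 11, and the difference was above 0 for both genes in all of them.

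**Figure D2:**
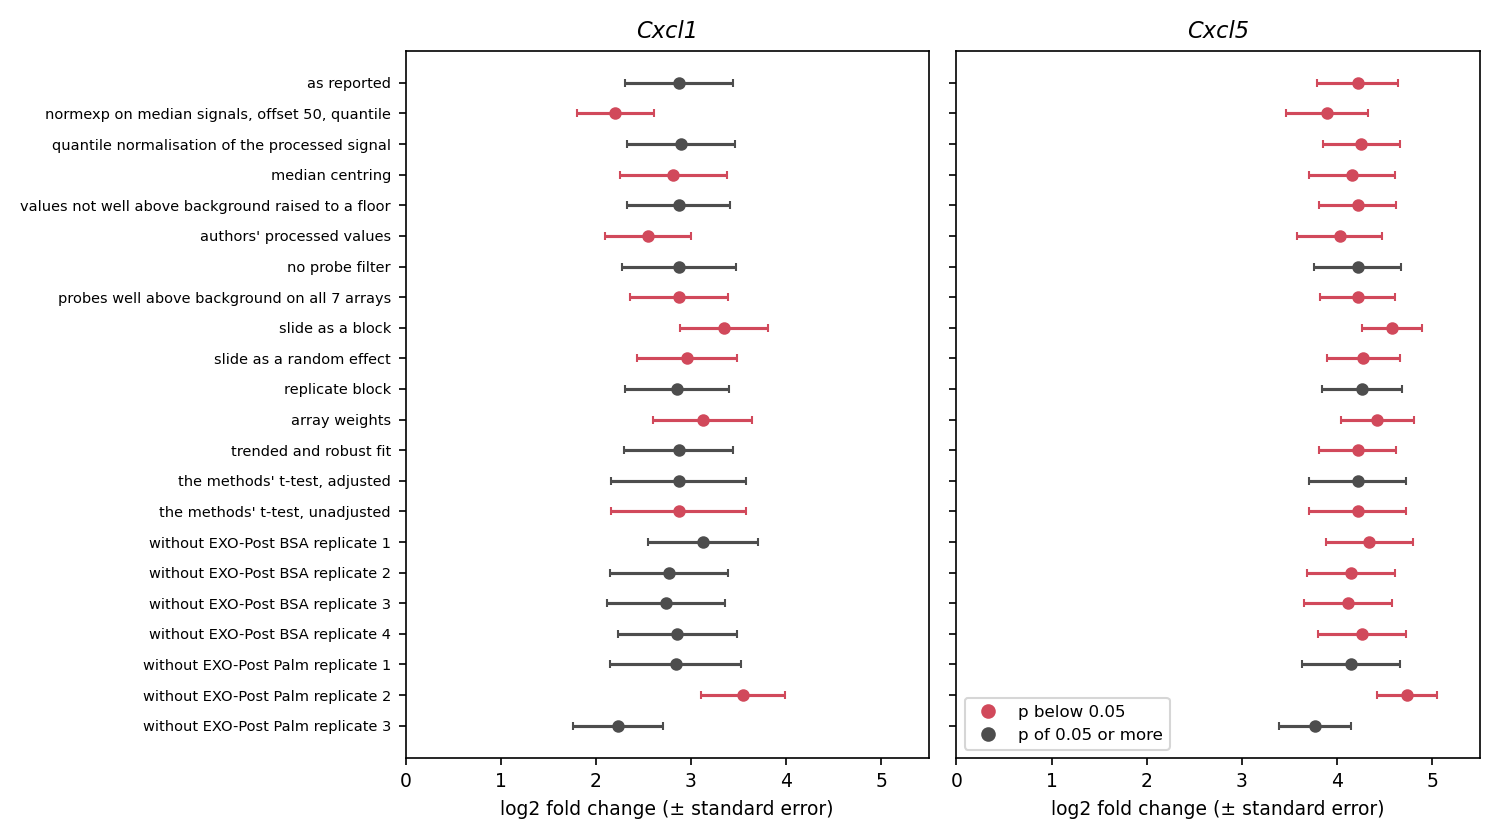
Log2 fold change (EXO-Post Palm over EXO-Post BSA, with its standard error) of Cxcl1 and Cxcl5 as reported, under 14 other settings and with each of the 7 arrays left out. Red points have a p below 0.05, adjusted over all tested probes except in the setting named as unadjusted. Cxcl1 ran from 2.21 to 3.55 and Cxcl5 from 3.77 to 4.73, and fewer settings carried Cxcl1 past the threshold.

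Cxcl2, the other ELR chemokine, also called MIP-2, behaved differently on the array. Its probe (chr5:91334534-91334593, plus strand, mm9) was well above background on 0 of 7 arrays. The values were -7.50, -7.83, -6.23 and -5.56 in EXO-Post BSA replicates 1 to 4 and -8.34, -5.99 and -6.63 in EXO-Post Palm replicates 1 to 3. The groups overlapped at background level, so that no fold is given.

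To set the sequences ahead of these genes beside the values, the 250 bases before the transcription start were taken from RefSeq (GRCm38.p6) for the members found in that table, which were Cxcl1, Cxcl2, Cxcl10, Cxcl12 and Cx3cl1. Capitals mark every match to a relaxed NF-kB motif, GGG, any 5 bases and CC, on either strand (read as GG, any 5 bases and CCC on the other). Overlapping matches run together. Cxcl1 (chr5:90890995-90891244, plus strand) and Cxcl2 (chr5:90903649-90903898, plus strand) are shown because these neighbouring genes differed in signal, and Cxcl10 (chr5:92348890-92349139, minus strand) because it was at background as well. Each is written 5′ to 3′ in the direction of transcription.
Cxcl1: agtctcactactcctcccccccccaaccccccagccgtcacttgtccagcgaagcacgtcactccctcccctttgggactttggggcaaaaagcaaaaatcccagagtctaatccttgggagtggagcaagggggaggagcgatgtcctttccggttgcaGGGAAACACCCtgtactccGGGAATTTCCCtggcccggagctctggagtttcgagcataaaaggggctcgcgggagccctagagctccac
Cxcl2: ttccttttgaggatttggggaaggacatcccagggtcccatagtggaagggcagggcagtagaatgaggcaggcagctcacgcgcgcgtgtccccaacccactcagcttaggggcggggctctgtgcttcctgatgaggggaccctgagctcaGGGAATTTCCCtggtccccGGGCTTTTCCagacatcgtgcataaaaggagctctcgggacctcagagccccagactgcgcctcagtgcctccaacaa
Cxcl10: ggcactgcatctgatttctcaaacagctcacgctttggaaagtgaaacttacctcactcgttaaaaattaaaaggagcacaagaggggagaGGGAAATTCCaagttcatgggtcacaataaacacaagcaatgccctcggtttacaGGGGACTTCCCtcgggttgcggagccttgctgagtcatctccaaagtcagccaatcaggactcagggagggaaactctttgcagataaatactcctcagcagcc

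Cxcl1 and Cxcl2 both hold the letters GGGAATTTCC, which begin 71 bases before the start in Cxcl1 and 97 bases before it in Cxcl2. Cxcl1 has a further match, GGGAAACACC, at 90 bases and Cxcl2 has GGGCTTTTCC at 78 bases. In Cxcl10 the matches GGGAAATTCC and GGGGACTTCC begin at 159 and 104 bases. Cxcl12 has 1 match, GGCCCGCCCC on the other strand at 36 bases, and Cx3cl1 has none. Thus 4 of 5 members held a match, as did 45.8% of all 32851 promoter sequences of the table over the same length. A match is a description of the letters, and Cxcl1, whose groups did not overlap, and the 2 genes at background all held one.

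In the genome Cxcl5, Ppbp, Pf4, Cxcl3, Cxcl15, Cxcl1 and Cxcl2 lie next to each other in this order on chromosome 5. Ppbp, the platelet basic protein that is also an ELR chemokine, read -7.15, -6.84, -6.04 and -5.81 in EXO-Post BSA replicates 1 to 4 and -4.26, -4.09 and -3.40 in EXO-Post Palm replicates 1 to 3. It was well above background on 0 of 4 EXO-Post BSA arrays and on 2 of 3 EXO-Post Palm arrays, so it was not tested. No fold is given for it, since no EXO-Post BSA array and not every EXO-Post Palm array was well above background. Pf4, platelet factor 4, read -7.82 to -6.52 and -6.26 to -4.74 and was well above background on 1 array, EXO-Post Palm only, which leaves no fold. Cxcl3 and Cxcl15 were well above background on no array. Between Cxcl5 and Cxcl1, no gene was thus well above background on all arrays of either group.

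**Figure D3:**
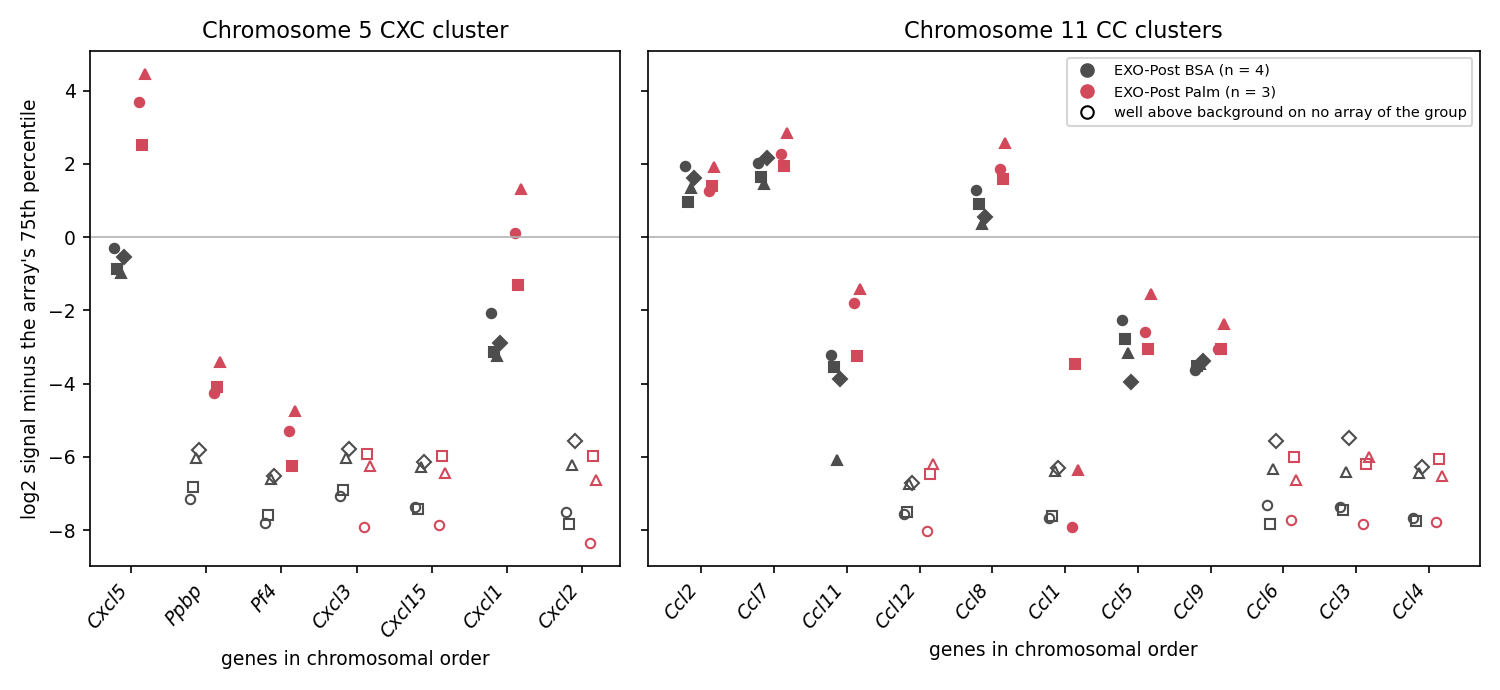
Log2 signal relative to the 75th percentile of each array for chemokine genes in chromosomal order on chromosome 5 (left) and chromosome 11 (right), in 4 EXO-Post BSA (grey) and 3 EXO-Post Palm (red) arrays, with replicates 1 to 4 as circles, squares, triangles and diamonds. Open symbols are groups in which no array was well above background. Cxcl5 and Cxcl1 stood higher with EXO-Post Palm. Ppbp was well above background on 2 arrays and Pf4 on 1, all of them EXO-Post Palm. Cxcl3, Cxcl15 and Cxcl2 lay at background in both groups, and Ccl8 and Ccl9 did not overlap between the groups.

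Other cell types were checked by their markers. Of 12 macrophage and leukocyte markers, Lyz2, S100a8 and S100a9 were well above background on no array, whereas Csf1r, Itgam, Cd14, Cd3e and Ly6g were on all 7. Ptprc was well above it on 1 EXO-Post BSA and 1 EXO-Post Palm array, Cd68 on 1 and 0, Cd79a on 1 and 2, and Emr1 on 4 and 2. Of the 6 tested, 0 passed in limma. At an unadjusted p of 0.05, 2 of the 6 passed, against 2169 of all 21589 tested probes. The 2 genes were Cd14, an endotoxin co-receptor, with the largest rise (1.05, adjusted p = 0.219), and the integrin gene Itgam with the largest fall (-1.63, adjusted p = 0.111). Neither overlapped between the groups. Other probes of Itgam differed by 0.16 and -0.55. The markers' summed signal was 8.53 to 19.2 times the 75th percentile on EXO-Post BSA arrays and 6.69 to 7.98 times on EXO-Post Palm arrays, with Itgam the largest term of the sum. The recipients were cultures of the muscle line C2C12, and no leukocytes are said to have been added to them. What the bright marker probes measure in these cultures was not tested. Of 6 endothelial markers, 4 (Cdh5, Tek, Tie1 and Emcn) were well above background on no array and the other 2, Kdr and Pecam1, on all 7, and their summed signal was 4.18 to 5.30 times the 75th percentile with EXO-Post BSA and 3.07 to 6.23 times with EXO-Post Palm. Of 5 adipocyte markers 1 was tested, and they summed to 0.131 to 0.233 and 0.125 to 0.169 times. Differentiated muscle markers summed to 768 to 1014 times the 75th percentile with EXO-Post BSA and 660 to 827 times with EXO-Post Palm. Myoblast markers summed to 22.8 to 31.1 and 19.95 to 33.0 times, with Cdh15 the largest term of the sum. Of these 7 myoblast markers 4 were tested, and Myf5 was well above background on no array.

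Among the CXC chemokines without the ELR residues, none passed the test. Cxcl12, a constitutively made ligand of Cxcr4 and Cxcr7 that guides progenitor cells, has 2 probes on chromosome 6. The probe at chr6:117131227-117131286 (plus strand, mm9) read 3.54, 3.42, 3.07 and 3.57 in EXO-Post BSA replicates 1 to 4 and 3.55, 3.85 and 3.85 in EXO-Post Palm replicates 1 to 3. That at chr6:117125026-117125085 read 1.92, 1.30, 1.34 and 1.31, and 1.61, 1.85 and 1.97. EXO-Post Palm replicate 1 lay within the EXO-Post BSA range on both probes. The differences were 0.35 (95% interval -0.14 to 0.83, adjusted p = 0.630) and 0.34 (-0.18 to 0.87, adjusted p = 0.662), so that either probe allows a rise of less than 1 log2 unit or a slight fall. On slide 1 they were 0.07 and 0.01, on slide 3 0.27 and 0.66, and with slide as a block 0.16 and 0.29.

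Cxcl16, a membrane-anchored chemokine that is shed by Adam10 and binds Cxcr6, was the only member with a fitted value below 0. Its probe (chr11:70267780-70267839, minus strand, mm9) read -1.64, -2.35, -1.78 and -2.05 in EXO-Post BSA replicates 1 to 4 and -2.997, -2.20 and -2.77 in EXO-Post Palm replicates 1 to 3. The groups overlapped because EXO-Post Palm replicate 2 lay above EXO-Post BSA replicate 2. The difference was -0.70 (SE 0.27, 95% interval -1.32 to -0.09, adjusted p = 0.438), with an exact permutation p of 0.0857. Within slides 1 and 3 it was -0.999 and -0.73, and with slide as a block -0.88 (adjusted p = 0.420).

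Cxcl10, a ligand of Cxcr3 that interferon induces, was well above background on 0 of 7 arrays. Its probe (chr5:92775781-92775840, minus strand, mm9) read -6.00, -6.47, -6.44 and -4.96 with EXO-Post BSA and -6.89, -6.11 and -6.12 with EXO-Post Palm, and no fold is given. Of 21 interferon response genes, 9 were tested and 0 passed, with a median difference of -0.07. At an unadjusted p of 0.05, 2 of the 9 passed, against 2169 of all 21589 tested probes. The largest rise was that of Gbp3, a guanylate-binding protein (1.12, adjusted p = 0.513), and the largest fall that of Ddx58, the RNA sensor RIG-I (-0.46, adjusted p = 0.471).

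None of the CC and CX3C chemokines passed the test, and 3 of these 4 genes, all but Ccl5, were well above background on all 7 arrays. Ccl2, the monocyte attractant MCP-1, whose probe (chr11:81850650-81850709, plus strand, mm9) is printed 10 times per array, read 1.95, 0.97, 1.35 and 1.60 in EXO-Post BSA replicates 1 to 4 and 1.27, 1.40 and 1.91 in EXO-Post Palm replicates 1 to 3. All EXO-Post Palm arrays lay inside the EXO-Post BSA range. The difference was 0.06 (95% interval -0.59 to 0.71, adjusted p = 0.961). It was -0.19 within slide 1, 0.31 within slide 3 and 0.02 with slide as a block. Its sign turned when each array was centred on its median and when either replicate 2 of EXO-Post BSA or replicate 3 of EXO-Post Palm was left out.

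Ccl7, or MCP-3, lies next to Ccl2 and attracts monocytes through the same receptor. Its probe (chr11:81860656-81860715, plus strand, mm9) read 2.03, 1.63, 1.44 and 2.16 with EXO-Post BSA and 2.28, 1.93 and 2.83 with EXO-Post Palm. EXO-Post Palm replicates 1 and 3 lay above all EXO-Post BSA arrays and replicate 2 among them. The difference of 0.53 (95% interval -0.12 to 1.18, adjusted p = 0.590) did not pass. It was 0.45 within slide 1, 0.67 within slide 3 and 0.54 with slide as a block.

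Ccl5, or RANTES, which attracts T cells and monocytes, had a wider interval than Ccl2 and Ccl7. Its probe (chr11:83339296-83339355, minus strand, mm9) read -2.27, -2.77, -3.17 and -3.95 with EXO-Post BSA, where replicate 4 was not well above background, and -2.59, -3.04 and -1.55 with EXO-Post Palm. Only EXO-Post Palm replicate 3 lay above all EXO-Post BSA arrays. The difference was 0.65 (95% interval -0.40 to 1.69, adjusted p = 0.680), and 0.23 when EXO-Post Palm replicate 3 was left out. It was -0.06 within slide 1, 2.40 within slide 3, where the EXO-Post BSA array was not well above background, and 0.99 with slide as a block.

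Cx3cl1, or fractalkine, is made as a membrane-anchored protein on a mucin stalk and, once shed, attracts cells that carry Cx3cr1. Its probe (chr8:97306185-97306244, plus strand, mm9) read 1.08, 1.00, 1.46 and 1.12 with EXO-Post BSA and 1.79, 1.75 and 1.95 with EXO-Post Palm. All EXO-Post Palm arrays lay above all EXO-Post BSA arrays, with EXO-Post BSA replicate 3 the nearest. The difference was 0.66 (SE 0.20, 95% interval 0.20 to 1.12), or 1.58-fold, with an unadjusted p of 0.00985 and an adjusted p of 0.297 in limma, and an exact permutation p of 0.0571. It was 0.74 within slide 1, 0.83 within slide 3 and 0.78 with slide as a block (adjusted p = 0.359).

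**Figure D4:**
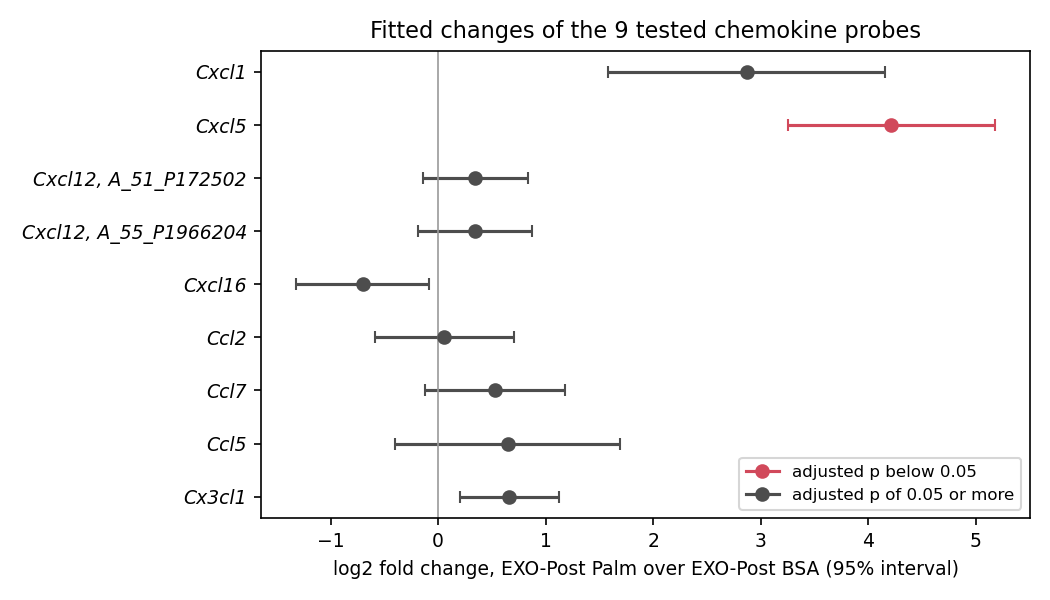
Log2 fold change (EXO-Post Palm over EXO-Post BSA) of the 9 tested chemokine probes as fitted with limma over 4 and 3 arrays, with 95% intervals as bars. The interval of Cxcl5 (3.25 to 5.18, red, adjusted p below 0.05) lay highest, those of Cxcl1 and Cx3cl1 lay above 0 and that of Cxcl16 below 0 without passing after adjustment, and the other 5 included 0.

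EXO-Post Palm replicate 3 was the highest of its group for 7 of the 9 chemokine probes, and for 30.8% of all tested probes. It gave the top value for Cxcl1, Cxcl5, Ccl2, Ccl5, Ccl7 and Cx3cl1 and for 1 probe of Cxcl12. The array shared slide 3 with EXO-Post BSA replicate 4, had 52.0% of its probes well above background and had the lowest 75th percentile of signal (549.4, against 648.3 to 1621.4 on the others). Without it the difference was 2.23 for Cxcl1, 3.77 for Cxcl5, 0.29 for Ccl7 and 0.60 for Cx3cl1.

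Beyond these 10 genes, no chemokine passed the test. Of 29 others on the arrays, 13 were well above background on no array, 11 were tested and 0 passed in limma. At an unadjusted p of 0.05, 3 of the 11 passed, against 2169 of all 21589 tested probes. Their median difference was -0.14. The largest rise was that of Ccl11, the eosinophil attractant eotaxin, which lies beside Ccl7. It read -3.23, -3.56, -6.08 and -3.87 with EXO-Post BSA and -1.81, -3.25 and -1.42 with EXO-Post Palm, a difference of 2.02 (SE 0.70, adjusted p = 0.377) in which EXO-Post BSA replicate 3 lay far below the others. The largest fall was that of Ccl17 (-0.42, adjusted p = 0.620). Ccl8, or MCP-2, and Ccl9 were the 2 tested genes whose groups did not overlap, both higher with EXO-Post Palm (5.40% of all tested probes), by 1.22 (95% interval 0.50 to 1.93, adjusted p = 0.204) and 0.67 (0.14 to 1.19, adjusted p = 0.375).

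Most receptor genes were too dim to be tested. Of 23 chemokine receptor genes, 6 were well above background on no array, among them Cxcr2, the receptor of the ELR chemokines. Of the 8 tested, 0 passed and 0 had an unadjusted p of 0.05 or less, with a median difference of 0.04. Cxcr4, the signalling receptor of Cxcl12, had the largest rise (0.38, adjusted p = 0.743). The atypical receptor Ccbp2, which takes up CC chemokines, had the largest fall (-0.34, adjusted p = 0.876), in a fit without EXO-Post Palm replicate 3, whose spot the scanner software had flagged. Cxcr7 differed by 0.32 and Cxcr6, the receptor of Cxcl16, by -0.29.

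Genes of the NF-kB pathway itself were compared in the same way. Of 16 subunits and feedback genes, 14 were tested, 0 passed in limma, and the median difference was 0.23. At an unadjusted p of 0.05, 6 of the 14 passed, as did 2169 of all 21589 tested probes. The groups did not overlap for 6 of the 14, 5 higher and 1 lower, against 11.3% of all tested probes. Nfkb1, which encodes the p50 subunit, had the largest rise by its brightest probe (0.85, adjusted p = 0.331). Another probe of Nfkb1 differed by 0.43 (adjusted p = 0.830). Tnfaip3, the inhibitor A20, had the largest fall (-0.62, adjusted p = 0.419).

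Cytokine and adhesion genes that NF-kB induces were tested for 10 of 16 genes, of which 0 passed, with a median difference of 0.40. At an unadjusted p of 0.05, 4 of the 10 passed, against 2169 of all 21589 tested probes. The groups did not overlap for 5 of the 10, all higher with EXO-Post Palm, as were 5.40% of all tested probes. Il6, the muscle-derived cytokine interleukin 6, had the largest rise. It read -3.52, -3.81, -3.40 and -3.97 with EXO-Post BSA and -0.30, -2.30 and 1.00 with EXO-Post Palm, a difference of 3.14 (SE 0.65, adjusted p = 0.105). Lcn2, the iron-binding lipocalin, had the largest fall (-0.56, adjusted p = 0.555).

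The tested genes outside the list with values nearest to those of Cxcl1, Cxcl5 and Cx3cl1 over the 7 arrays were looked up. Such a search always returns some genes. Likeness was taken as the root mean square distance between log2 values, each relative to the gene's EXO-Post BSA mean. For Cxcl1 the nearest were a probe named only by the transcript ENSMUST00000103299 (distance 0.379), Kif20b, a mitotic kinesin (0.392), and Il6 (0.450). Those nearest to Cxcl5 were Cck, the peptide hormone cholecystokinin (0.324), Apln, the peptide apelin (0.498), and Thbd, thrombomodulin (0.715). Cx3cl1 was nearest to Lck, Nr4a1 and Cenpq, at distances of 0.0947 to 0.104. Smaller distances are easier to reach for genes with smaller differences, so that they are not comparable between the 3 chemokines.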

How the data were processed

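For each array the authors deposited the scanner software's output, in which the processed signal is a spot intensity with background and spatial trend removed but no normalisation across arrays. They also deposited their own normalised values on the log2 scale. The labels name Agilent Feature Extraction 9.1 and limma. The file headers give software 10.7.3.1, and 11.5.1.1 for EXO-Post BSA replicate 3. Here log2 of the processed signal was taken and each array's 75th percentile, over 43020 spots that are not controls, subtracted. Control spots and spots marked as outliers were left out, no spot was saturated, and spots of 1 probe were averaged. Probes were tested as described above with limma 3.58.1 in R 4.3.3 (model on condition, empirical Bayes, Benjamini-Hochberg adjustment over 21589 probes). The model was also run on simulated data, in which both groups had the same spread, unlike the measured values of Cxcl1 and Cxcl5. Single values also received an exact permutation test. Tables and figures were made with Python 3.11.15, pandas 2.3.3, numpy 2.4.6 and matplotlib 3.10.9. A gene in a list is represented by its brightest probe, and from each list of the chemokine pathway the genes past the threshold, the largest rise and the largest fall are named. Ccl8, Ccl9, Ppbp, Pf4, Cxcr6, Cxcr7, Adam10, Adam17, Cd14 and Itgam were named after their values were seen. The members and lists were chosen with earlier results of these data known, so their counts are descriptions. The number of arrays limits the precision.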

Additional observations from a re-analysis of the deposited data

Results flagged for a closer look

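Among the 4 EXO-Post BSA arrays, replicate 1 stood apart for the Cxcl12 probe A_55_P1966204, with a log2 value of 1.92 against 1.30 to 1.34 on the other 3. Its gap to the nearest array was 0.937 of the range of the group. This was the only such value among the 11 groups of 4 arrays examined. Chance flags about 1 in 20 of the groups examined, so that 1 flag among 11 groups is not unusual.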

How the results depend on the processing

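Main counts were 115 probes past the threshold, 1 of them a chemokine probe. The chemokine count rose to 2, with Cxcl1 joining Cxcl5, under normexp on median signals, median centring, the authors' processed values, the filter on all 7 arrays, slide as a block, slide as a random effect and array weights. It fell to 0 with no probe filter and with the methods' t-test after adjustment, which both also left 0 of all probes (1900 and 2108 at an unadjusted p of 0.05). The unadjusted t-test gave 4 chemokine probes and 2108 in all, slide as a random effect 181 in all, array weights 172, and the trended and robust fit 173. Leaving out 1 array gave 4 to 228 probes and 0 to 2 chemokine probes, with 0 without EXO-Post Palm replicate 1 or 3. Ccl2 reversed under median centring (-0.00029), without EXO-Post BSA replicate 2 (-0.11) and without EXO-Post Palm replicate 3 (-0.13), and lay between -0.13 and 0.22 over the arrays left out. No other chemokine probe changed sign in any setting.

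Replicate numbers were not taken to pair the arrays. Deviations of same-numbered arrays correlated at 0.122 for replicate 1, where both arrays shared slide 1, and at -0.15 and -0.148 for replicates 2 and 3. So few values cannot show whether the cultures were paired. With the replicate block, 0 probes passed, chemokine probes included (1933 at an unadjusted p of 0.05), with a difference of 4.26 for Cxcl5 and 2.86 for Cxcl1. EXO-Post BSA replicate 4 has no partner and adds nothing to that difference. Normexp on mean signals was not run because the output of EXO-Post BSA replicate 3 lacks that column, and normexp on median signals was added after seeing the data. With 3 and 4 arrays a change close to the spread between arrays cannot be told from none, and Cxcl2 and Cxcl10 have no measured level, so that a change below background would not be seen.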

Other observations

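Heparan sulfate proteoglycans hold chemokines at the cell surface, and proteases such as Adam10, Adam17 and Mmp2 release or trim them. Of 14 genes of these kinds, 12 were tested and 0 passed in limma, with a median difference of 0.03. At an unadjusted p of 0.05, 2 of the 12 passed, against 2169 of all 21589 tested probes. The groups did not overlap for 3 of the 12, all higher with EXO-Post Palm, as were 5.40% of all tested probes. Mmp2, a gelatinase, had the largest rise (0.78, adjusted p = 0.375), and Sdc2, the proteoglycan syndecan 2, the largest fall (-0.47, adjusted p = 0.597). Adam10, which sheds Cxcl16 and Cx3cl1, differed by -0.42 (adjusted p = 0.833), and Adam17 by 0.13.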
